A study of Rattus norvegicus with 9 samples.

Results

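The 10 genes described here were taken by symbol from the table of 22888 rat genes: the oxygen-response regulators Hif1a, Epas1 and Egln3, the glucose-metabolism enzymes Hk2, Pfkfb3, Ldha and Pdk1, the mitochondrial protein Bnip3, and the brain globins Ngb and Cygb. Each symbol matched 1 row, and all 10 were among the 17770 genes tested. The RNA came from brain tissue of male Sprague-Dawley rats in 3 groups of 3 libraries. The sham group (libraries 1, 3 and 5) had a sham operation. In the model group (1, 3 and 4) the middle cerebral artery was blocked in 1 hemisphere to mimic ischemic stroke. The astaxanthin group (1, 2 and 3) was given the carotenoid astaxanthin by gavage at 45 mg/kg, the dose the labels call medium, for 7 days before the same occlusion. Tissue was collected 1 day after occlusion. The labels give neither the brain region nor the side, name no vehicle for the sham or model groups, and do not say whether each library stands for a separate animal, so p-values measure only the spread between these libraries.

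Cells sense oxygen through prolyl hydroxylases of the Egln family, which mark the alpha subunits of hypoxia-inducible factor (HIF) for destruction through the Vhl ubiquitin ligase while oxygen is present. When oxygen falls, the stabilised subunits, encoded by Hif1a and Epas1, raise the transcription of genes for glucose uptake, glycolysis, lactate output and removal of mitochondria, and of Egln3 itself. HIF is controlled mainly at the level of its protein, which RNA does not measure. Hk2, Pfkfb3, Ldha, Pdk1, Bnip3 and Egln3 are well-known HIF targets. Neuroglobin (Ngb) is an oxygen-binding protein of neurons, with high levels in the hypothalamus, and cytoglobin (Cygb) is its relative in fibroblast-like cells, pericytes and some neurons.

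HIF binds DNA at short sites built around the cores ACGTG and GCGTG. Both cores were searched on both strands of the promoter windows of RefSeq (assembly GRCr8), each 300 bases long with 250 before and 50 after the start used. A window was found for 9 of the 10 genes, all but Cygb. The windows below belong to 2 glycolytic enzymes with cores near the start (Ldha, Pfkfb3), to Hif1a, and to the members with the largest rise and fall after occlusion (Hk2, Ngb). They are written 5′ to 3′ on the gene's strand, and capitals mark the cores on either strand, so that CACGT and CACGC are cores on the other strand.
Ldha, chr1:106507842-106508141, plus strand: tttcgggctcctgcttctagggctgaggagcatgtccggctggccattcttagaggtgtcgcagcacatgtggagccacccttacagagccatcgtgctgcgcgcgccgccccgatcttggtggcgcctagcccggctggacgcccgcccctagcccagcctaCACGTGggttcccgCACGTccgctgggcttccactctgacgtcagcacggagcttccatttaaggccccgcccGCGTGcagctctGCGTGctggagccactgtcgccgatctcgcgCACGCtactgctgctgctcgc
Pfkfb3, chr17:71944683-71944982, plus strand: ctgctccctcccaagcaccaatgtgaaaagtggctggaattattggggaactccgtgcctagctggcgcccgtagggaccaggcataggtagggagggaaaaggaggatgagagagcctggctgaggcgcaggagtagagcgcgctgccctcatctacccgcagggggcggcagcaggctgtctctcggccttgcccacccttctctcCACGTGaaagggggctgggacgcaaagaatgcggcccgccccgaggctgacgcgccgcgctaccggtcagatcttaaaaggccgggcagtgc
Hif1a, chr6:98359648-98359947, plus strand: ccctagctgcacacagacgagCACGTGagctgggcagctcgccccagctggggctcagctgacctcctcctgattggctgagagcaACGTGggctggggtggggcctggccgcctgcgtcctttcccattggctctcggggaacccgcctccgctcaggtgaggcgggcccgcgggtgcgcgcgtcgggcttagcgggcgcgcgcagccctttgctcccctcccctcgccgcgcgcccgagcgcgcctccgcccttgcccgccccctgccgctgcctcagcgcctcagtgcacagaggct
Hk2, chr4:116841226-116841525, minus strand: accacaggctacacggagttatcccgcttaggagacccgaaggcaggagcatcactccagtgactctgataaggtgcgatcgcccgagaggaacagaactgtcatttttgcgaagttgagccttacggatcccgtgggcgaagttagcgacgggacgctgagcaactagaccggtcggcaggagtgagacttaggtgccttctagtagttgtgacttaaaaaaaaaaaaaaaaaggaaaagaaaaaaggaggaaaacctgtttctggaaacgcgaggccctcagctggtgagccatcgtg
Ngb, chr6:112480737-112481036, minus strand: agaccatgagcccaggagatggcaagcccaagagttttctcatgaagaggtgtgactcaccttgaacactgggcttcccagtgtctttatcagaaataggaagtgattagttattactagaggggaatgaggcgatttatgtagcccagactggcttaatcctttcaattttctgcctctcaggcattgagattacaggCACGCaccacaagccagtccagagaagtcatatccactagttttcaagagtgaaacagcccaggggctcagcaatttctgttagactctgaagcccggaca

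Ldha held 6 cores, 3 of each kind, at positions -87, -86, -73, -14, -2 and 30 counted from the start. Pfkfb3 held 2, at -42 and -41. Hif1a held 3, at -229, -228 and -164. In each of these genes the first pair overlaps, because the palindrome CACGTG reads as a core on both strands. Pdk1 and Bnip3 held 4 each, Ngb held 1 (GCGTG at -51, on the other strand), and Hk2, Epas1 and Egln3 held none. Of the 9 windows, 6 held a core, against 41.6% of the 33469 windows in the RefSeq table and 68.3% of the 8777 windows with a GC content of at least 60%. The GC content was 73.7% in the Hif1a window, 66.7% in Ldha, 64.0% in Pfkfb3, 51.0% in Hk2 and 47.0% in Ngb. It was 44.7% in Egln3, so the windows of Hk2, Ngb and Egln3 fall outside the set with at least 60%. For Hif1a, Epas1, Pfkfb3 and Pdk1 the start used lies inside the gene's annotated span, so the window is that of a later start. In Pdk1 the shift is small, and the window begins 200 bases before the span. A match describes these letters only and is not a measured binding site.

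The depth and the makeup of the libraries touch every value below. Recovered reads came to between 52268061 and 76311125 per library, and the members' values lay between 54.9 and 47357 normalized reads, far above the 3 reads that a count of 0 allows. All 14 pan-neuronal markers were detected in every group. Astaxanthin 1 stood apart on the second principal component (-148.5, against -17.0 to 47.4 elsewhere), and its 10 cerebellar markers summed to 309881 normalized reads against 13964 or less in the other libraries. Sham 5 and astaxanthin 1 held the most choroid plexus RNA: the sum of 8 markers was 116843 and 197961 normalized reads, and no other library exceeded 15947. Model 3 had the lowest sum of the pan-neuronal markers (181665, against 365812 or more elsewhere). In model 3 the endothelial markers summed to 93183 against 24404 or less, the pericyte and fibroblast markers to 84758 against 18728 or less, and the neutrophil markers to 15174 against 3170 or less. The mean log2 level of the 11 microglia and macrophage markers, relative to the sham mean, was 0.60 to 1.29 in model, -0.19 to 0.28 in sham and 0.08 to 0.47 in astaxanthin. That list was split. Of the 11, 4 lay above all sham libraries and 3 below them in the model group, against 3 above and 6 below in the astaxanthin group. Of all genes tested, 19.0% lay above and 16.6% below all sham libraries in model, and 13.0% and 11.4% in astaxanthin. In sham the neutrophil genes Cxcr2, Ngp and Elane were at 0. The part of these differences in makeup in any result below was not tested, and in bulk tissue fewer cells of a type cannot be told apart from less RNA per cell.

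One day after occlusion, Hif1a and Hk2 rose and both brain globins fell relative to sham. Hif1a was 2.79-fold higher in model and Hk2 6.49-fold, while Ngb was 7.74-fold lower and Cygb 2.33-fold lower, as ratios of the group means. Thus 4 of the 10 genes passed the threshold, a limma adjusted p of 0.05 over 17770 genes (two-sided), against a background of 4.77% of all genes tested. In each direction the count was 2 of 10, against 3.45% of genes higher and 1.32% lower. The members were chosen with results of these data known, so the count is no independent evidence about them. Without astaxanthin 1 and model 3, 6 members passed, Pfkfb3 and Ldha being the additional ones, and 15.6% of all genes passed in that fit. The groups did not overlap in 6 of 10 members (Hif1a, Ldha, Pfkfb3 and Hk2 higher, Ngb and Cygb lower), against 35.6% of genes, 19.0% higher and 16.6% lower. DESeq2 on the recovered reads called 5 members, the 4 above and Pfkfb3, against 17.6% of the genes it tested.

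Between astaxanthin and model no member passed, and no gene of the 17770 did (0.0%). The unadjusted limma p was under 0.05 for 3 members (Hif1a, Ngb, Cygb), against 1579 genes or 8.89%. DESeq2 on the recovered reads called 1.28% of the genes it tested, with Hif1a as the only member, and edgeR called 0 genes. The groups did not overlap in those same 3 members, Hif1a lower and Ngb and Cygb higher with astaxanthin, against 13.0% of genes, 7.24% lower and 5.72% higher. Astaxanthin against sham called no member in limma either, against 0.276% of genes. There, 5 members had an unadjusted p under 0.05 (Hif1a, Pfkfb3, Hk2, Ngb, Cygb), against 12.3% of genes. DESeq2 called 3 (Hif1a, Hk2, Ngb) against 4.64% of the genes it tested, and edgeR 0. Without astaxanthin 1 and model 3, 3 members passed (Ldha, Pfkfb3 and Hk2), against 4.09% of genes in that fit. Groups did not overlap in 5 (Hif1a and Hk2 higher, Egln3, Ngb and Cygb lower), against 24.3% of genes, 13.0% higher and 11.4% lower. The model and sham libraries each serve in 2 of these comparisons, so the values are given side by side and are not independent.

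**Figure D1:**
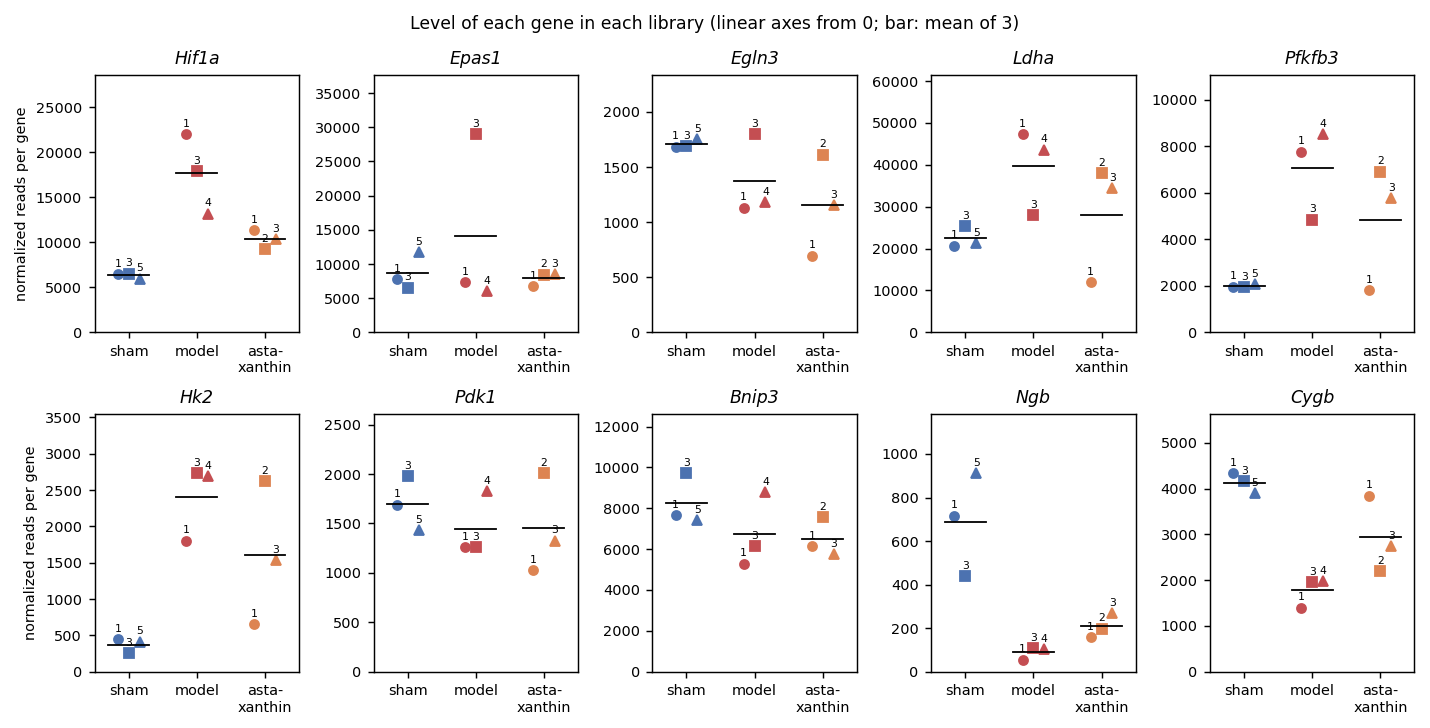
Normalized reads of the 10 members in each of the 9 libraries (points, y axis from 0, 1 panel per gene), by group, with the group mean. Hif1a, Ldha, Pfkfb3 and Hk2 lie higher in all 3 model libraries than in any sham library, Ngb and Cygb lie lower, and astaxanthin 1 lies lowest of its group for Ldha, Pfkfb3 and Hk2.

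**Figure D2:**
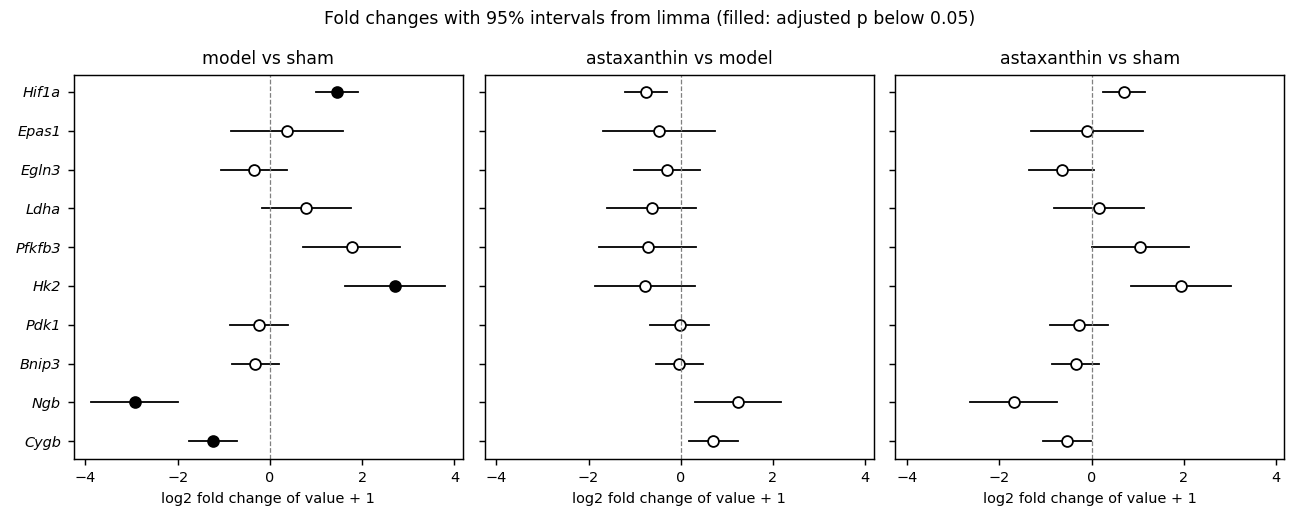
Fold changes of the 10 members on the log2(value + 1) scale with 95% intervals from limma, in the 3 comparisons. For model against sham the intervals of Hif1a, Pfkfb3, Hk2, Ngb and Cygb leave out 0, and the adjusted p of Pfkfb3 (0.0653) misses the threshold.

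Hif1a, which encodes the regulated subunit of HIF-1 (rn7, chromosome 6, 92624390 to 92669261), varied little in sham and was higher in every occluded library. Its normalized reads were 6504, 6544 and 5979.5 in sham 1, 3 and 5, 22046, 17914 and 13213 in model 1, 3 and 4, and 11325, 9297 and 10359.6 in astaxanthin 1, 2 and 3. The 3 groups did not overlap, with sham lowest and model highest. Group means were 6342 ± 315 in sham, 17724 ± 4420 in model and 10327 ± 1015 in astaxanthin (SD, n = 3). The log2 fold change of model over sham was 1.45 ± 0.20 SE (95% interval 0.99 to 1.91, limma adjusted p = 0.0122). The call was lost without sham 1 (limma adjusted p = 0.0626) or sham 3 (0.0585). Between astaxanthin and model Hif1a differed by -0.75 ± 0.20 (interval -1.21 to -0.29) with a limma adjusted p of 0.548. DESeq2 called that difference, at -0.78 with an adjusted p of 0.0401. Between astaxanthin and sham the difference was 0.70 ± 0.20 (0.24 to 1.16, limma adjusted p = 0.238), called by DESeq2 with an adjusted p of 0.0363. All Hif1a reads were assigned to a single annotated transcript.

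The second alpha subunit, Epas1 (HIF-2 alpha, chromosome 6, 7790647 to 7871228), is known as the endothelial member of the pair. It stood at 7785, 6541 and 11785 normalized reads in sham, 7324, 29007 and 6089 in model and 6785, 8453 and 8539.8 in astaxanthin, in the library order used above. Model 3 was the highest of all 9 libraries, the same library that held the largest endothelial sum, and the groups overlapped. The log2 fold change of model over sham was 0.37 ± 0.53 (-0.84 to 1.58, limma adjusted p = 0.717), and without model 3 it turned to -0.34. Epas1 was also uneven within sham, where its shorter transcript Epas1-202 took 5.05% of the gene's reads in sham 5 and 22.2% to 28.4% in the other 8 libraries. Without the scaling between libraries, log2 Hif1a minus log2 Epas1 was -0.26, 0.00 and -0.98 in sham, 1.59, -0.70 and 1.12 in model, and 0.74, 0.14 and 0.28 in astaxanthin. Model and sham overlapped through model 3 (difference of means 1.08 ± 0.76 SE, exact permutation p = 0.3), and every astaxanthin library lay above every sham library (0.80 ± 0.34, exact permutation p = 0.1). That is the smallest two-sided p that 3 libraries against 3 can give, and over the 9 such comparisons made here it adjusts to 0.225.

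Egln3, the prolyl hydroxylase that is both a sensor and a target of HIF (chromosome 6, 71650297 to 71675766), did not pass the test in any comparison. Its normalized reads were 1685, 1690.0 and 1752 in sham, 1132, 1799.9 and 1184 in model and 697, 1613 and 1152 in astaxanthin. Sham was tight, at 1709 ± 37.1, while model 3 lay above all sham libraries and model 1 and 4 below them. Model differed from sham by -0.35 ± 0.31 on the log2 scale (-1.06 to 0.36, limma adjusted p = 0.537) and astaxanthin from sham by -0.65 ± 0.31 (limma adjusted p = 0.439), where the groups did not overlap.

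None of the 16 other oxygen-sensing genes listed passed between model and sham, against 4.77% of all genes. Their median log2 fold change was 0.07 against 0.02 over all genes. Vhl, the substrate receptor of the ligase that destroys HIF alpha, was nearest to the threshold. It stood at 2941, 3023 and 3643 normalized reads in sham, 4335, 7112 and 5924 in model and 2950.1, 3856 and 4323 in astaxanthin. Every model library lay above every sham library (0.83 ± 0.23, limma adjusted p = 0.0721). Egln1, the main oxygen sensor of the family, was at 2456, 2269 and 2556 in sham and 3094, 3894 and 3165 in model, without overlap (0.47 ± 0.16, limma adjusted p = 0.114). Hif3a, whose product can oppose HIF, was at 231, 104 and 183 in sham, 39.1, 86.4 and 34.4 in model and 299, 98.3 and 220.0 in astaxanthin. It was lower in all 3 model libraries (-1.72 ± 0.57, limma adjusted p = 0.115) and higher in all 3 astaxanthin libraries than in any model library (1.91 ± 0.57, limma adjusted p = 0.548). Without astaxanthin 1 and model 3, 2 of the 16 passed between model and sham, a share below the 15.6% of all genes in that fit. In astaxanthin against model and against sham, 0 of the 16 passed, with medians of -0.05 and 0.12. Of all genes, 0.0% and 0.276% passed there.

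Hk2, the inducible hexokinase that traps glucose in the cell and binds to mitochondria (chromosome 4, 115234509 to 115283530), had the largest rise among the members. Its normalized reads were 445, 253 and 415 in sham, 1804, 2730.2 and 2696 in model and 656, 2626 and 1531 in astaxanthin. All occluded libraries, treated or not, lay above all sham libraries, and astaxanthin 1 was the lowest of them. Group means were 371 ± 103, 2410 ± 525 and 1604 ± 987. The log2 fold change of model over sham was 2.71 ± 0.48 (1.63 to 3.8, limma adjusted p = 0.0222). That call was lost without sham 1, sham 3, sham 5, model 1 or model 3, where the limma adjusted p of Hk2 was 0.0824, 0.0891, 0.0662, 0.0634 and 0.0521. Astaxanthin over sham gave 1.94 ± 0.48 (0.85 to 3.02, limma adjusted p = 0.179). Without astaxanthin 1, the library rich in cerebellar markers, it was 2.47 and passed (limma adjusted p = 0.0280). Astaxanthin differed from model by -0.78 ± 0.48 (limma adjusted p = 0.607). No HIF core was found in the Hk2 window printed above.

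Pfkfb3 makes fructose 2,6-bisphosphate, a strong activator of phosphofructokinase and so of glycolysis (chromosome 17, 66983686 to 67063125). It stood at 1965, 1956 and 2079.8 normalized reads in sham, 7769, 4843 and 8521 in model and 1809, 6904 and 5765 in astaxanthin. All model libraries lay above all sham libraries, and astaxanthin 1 lay below all sham libraries while astaxanthin 2 and 3 lay within the range of the model group. The mean was 3.52-fold higher in model than in sham, a log2 fold change of 1.77 ± 0.46 (0.72 to 2.83), and the limma adjusted p of 0.0653 missed the threshold. It passed without astaxanthin 1 (limma adjusted p = 0.00661), in a fit of the model and sham libraries alone (0.0177) and in DESeq2 (adjusted p = 0.00159). Astaxanthin over sham gave 1.06 ± 0.46 (limma adjusted p = 0.405), or 1.66 with a limma adjusted p of 0.0313 without astaxanthin 1. Astaxanthin differed from model by -0.72 ± 0.46 (-1.77 to 0.33, limma adjusted p = 0.617).

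The Pfkfb3 reads were spread over 6 annotated transcripts, in shares that differed between libraries. Pfkfb3-206, with 16 exons (67035161 to 67062919), took 24.6%, 20.0% and 27.6% of the gene's reads in sham 1, 3 and 5, 31.5%, 52.9% and 58.5% in model 1, 3 and 4, and 18.1%, 61.7% and 52.8% in astaxanthin 1, 2 and 3. The share was higher in all 3 model libraries than in sham, and in astaxanthin 1 it was the lowest of all. In normalized reads the means of this transcript were 476 ± 91.3 in sham, 3309 ± 1404 in model and 2502 ± 1980 in astaxanthin. Pfkfb3-205, the longest transcript, went from 629 ± 83.3 to 1555 ± 297 and 1063 ± 287 normalized reads, so its share in model (23.0% ± 5.50) lay below that in sham (32.0% ± 4.40). How reads shared by these transcripts were divided was not stated, and no test was made on them. Ldha-202 held 97.7% to 99.8% of Ldha reads and Bnip3-201 83.8% to 90.4% of Bnip3 reads.

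**Figure D3:**
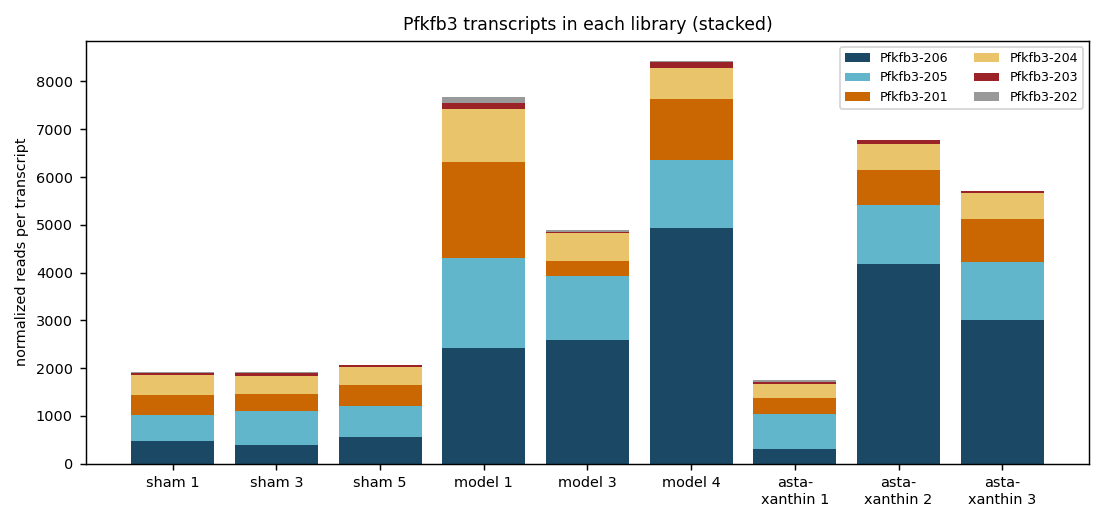
Normalized reads assigned to each of the 6 annotated Pfkfb3 transcripts (stacked, y axis from 0) in each of the 9 libraries. As a share of the bar, Pfkfb3-206 holds 20.0% to 27.6% in sham, 31.5% to 58.5% in model, and in astaxanthin 18.1% in library 1 against 52.8% or more in libraries 2 and 3.

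Ldha encodes the lactate dehydrogenase subunit that favours making lactate from pyruvate, and Ldhb the subunit that favours the reverse. Ldha (chromosome 1, 97366021 to 97433472) stood at 20736, 25311 and 21282 normalized reads in sham, 47357, 28049 and 43648 in model and 11938, 38119 and 34356 in astaxanthin. All model libraries lay above all sham libraries, model 3 only slightly, and astaxanthin 1 was the lowest of all 9. The log2 fold change of model over sham was 0.79 ± 0.43 (-0.18 to 1.76, limma adjusted p = 0.291), and astaxanthin differed from model by -0.63 ± 0.43 (-1.60 to 0.34, limma adjusted p = 0.628). Its annotated span overlaps Dcun1d3, Ldhc and Tsg101, and whether counting used the strand was not stated. Ldhb (chromosome 4, 175428385 to 175446403) was at 36444, 39870.3 and 35629.8 in sham, 14137, 19222 and 18938 in model and 29794, 20573 and 24311 in astaxanthin, with sham highest and model lowest and no overlap between groups. It fell in model by 1.11 ± 0.20 on the log2 scale (limma adjusted p = 0.0236), a call kept in 5 of 9 fits without a library and lost without sham 1, sham 3, sham 5 or model 1 (limma adjusted p up to 0.101).

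The balance between the subunits could be read within each library, without the scaling between libraries. Log2 Ldha minus log2 Ldhb was -0.81, -0.66 and -0.74 in sham, 1.74, 0.55 and 1.20 in model, and -1.32, 0.89 and 0.50 in astaxanthin. It was negative in all sham libraries and positive in all model libraries. In the astaxanthin group it was positive in libraries 2 and 3, and in library 1 it was lower than in sham. The difference of means was 1.90 ± 0.35 SE for model over sham (exact permutation p = 0.1, the smallest possible, 0.225 adjusted over 9 comparisons), -1.14 ± 0.76 for astaxanthin over model (exact permutation p = 0.2, 0.36 adjusted) and 0.76 ± 0.68 for astaxanthin over sham (exact permutation p = 0.4, 0.45 adjusted). Per kilobase of transcript in sham, Ldhb was at 26123 ± 1541 reads and Ldha at 14135 ± 1594. In model Ldhb was at 12348 ± 2103 and Ldha at 25244 ± 6317.

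**Figure D4:**
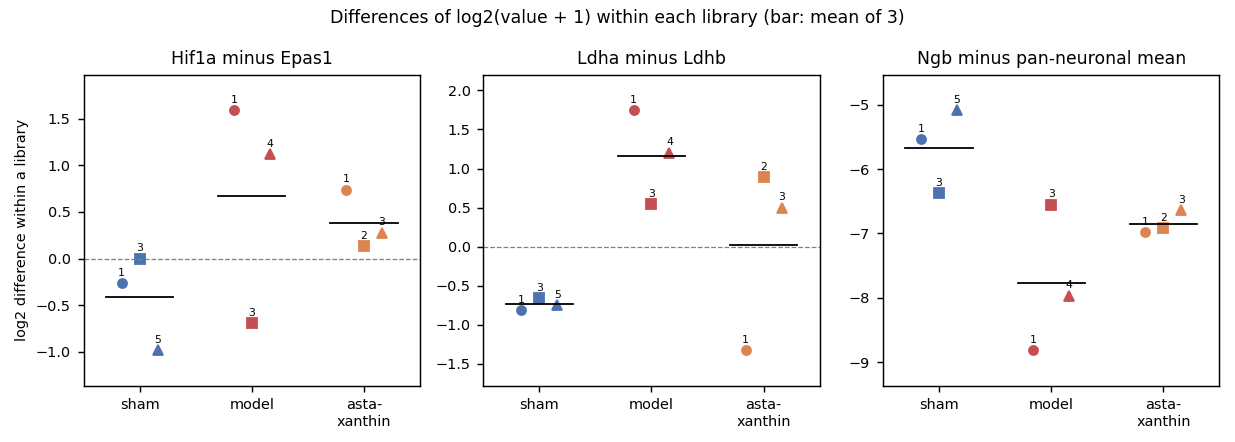
Log2 differences within each library (points) by group: Hif1a minus Epas1, Ldha minus Ldhb, and Ngb minus the mean of 14 pan-neuronal markers. Ldha minus Ldhb is below 0 in all sham libraries and above 0 in all model libraries, and Ngb minus the pan-neuronal mean is lower in every model library than in any sham library.

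Of the 20 other glycolytic genes in the table, 1 rose and 2 fell in model, against 3.45% and 1.32% of all genes. Their median log2 fold change was -0.09 against 0.02 over all genes. Slc2a1, the glucose transporter of the blood-brain barrier, rose from 10421, 8734 and 11665 to 18959, 36320.5 and 25123 normalized reads (1.34 ± 0.31, limma adjusted p = 0.0480). Its highest value was again in model 3, and the call was kept in 1 of 9 fits without a library. Pfkm, the muscle-type phosphofructokinase subunit, fell from 38607, 39816 and 39006 to 18896, 13386 and 24014, with 36514, 28373 and 24770.4 in astaxanthin (-1.10 ± 0.24, limma adjusted p = 0.0420, kept in 2 of 9). Ldhb is the other that fell. Hk3, the hexokinase of white blood cells, named after its value was seen, was at 3.45 ± 5.98 normalized reads in sham, 180.2 ± 83.7 in model and 76.9 ± 88.9 in astaxanthin, without overlap between model and sham, and did not pass (limma adjusted p = 0.0861). Without single libraries between 0 and 5 of the 20 were called, against 0.407% to 9.12% of all genes in those fits, and 6 without astaxanthin 1 and model 3, against 15.6%. Aldoc, the brain aldolase, is strong in astrocytes and Purkinje cells. It was at 64980, 66870.5 and 77777 in sham, 19471, 35255 and 32077 in model and 136826, 38142 and 45761 in astaxanthin. Every model library lay below every sham library (-1.31 ± 0.46, limma adjusted p = 0.131), as did astaxanthin 2 and 3. The value of Aldoc in astaxanthin 1 exceeded that in every other library, and astaxanthin differed from model by 1.15 ± 0.46 (limma adjusted p = 0.548). Among the 20, 0 passed in either comparison of the astaxanthin group, with medians of 0.06 against model and 0.05 against sham. Of all genes, 0.0% passed against model and 0.276% against sham. Without astaxanthin 1 and model 3, 1 of the 20 passed against sham, where 4.09% of all genes did.

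Pdk1 encodes a kinase that blocks pyruvate dehydrogenase, the enzyme that uses pyruvate inside mitochondria (chromosome 3, 56705871 to 56733038). It stood at 1691, 1978 and 1436 normalized reads in sham, 1258, 1261 and 1828 in model and 1028, 2008 and 1326 in astaxanthin, and the groups overlapped throughout. Model differed from sham by -0.24 ± 0.28 (-0.88 to 0.39, limma adjusted p = 0.639), so the interval leaves out a 2-fold rise. Of the 14 other genes of pyruvate and lactate handling, 1 passed between model and sham, against 4.77% of all genes. Slc16a3, the lactate exporter MCT4, rose from 80.1, 144 and 104 in sham to 649, 2594 and 957 in model (3.45 ± 0.65, limma adjusted p = 0.0261), with 282, 1139 and 339 in astaxanthin. That call was lost without sham 1, sham 3, sham 5, model 1 or model 3 (limma adjusted p up to 0.109). Without single libraries 0 to 2 of the 14 were called, against 0.407% to 9.12% of all genes in those fits. Without both astaxanthin 1 and model 3, 3 were called, where 15.6% of all genes were. The median of the 14 was -0.22 in model over sham, -0.13 in astaxanthin over model and -0.10 in astaxanthin over sham. In both comparisons with astaxanthin 0 of the 14 passed, against 0.0% of all genes over model and 0.276% over sham. Without astaxanthin 1 and model 3, 1 of the 14 passed against sham, where 4.09% of all genes passed. Mpc1, a subunit of the mitochondrial pyruvate carrier, was at 5459, 6892 and 6248 in sham and 3332, 4684 and 3693 in model (-0.68, limma adjusted p = 0.0953).

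Bnip3, which sits in the outer mitochondrial membrane and draws mitochondria into autophagy (chromosome 1, 193708167 to 193725359), did not pass the test in any comparison. Its normalized reads were 7675, 9710.0 and 7404 in sham, 5294, 6157 and 8775 in model and 6155, 7571 and 5771 in astaxanthin. The groups overlapped, and the log2 fold change of model over sham was -0.32 ± 0.22 (-0.82 to 0.19, limma adjusted p = 0.422), an interval that leaves out a 2-fold rise. Astaxanthin differed from model by -0.03 and from sham by -0.35. Of the 9 other mitophagy genes tested, 0 passed in any comparison. Their medians were -0.28, 0.17 and 0.04 in model over sham, astaxanthin over model and astaxanthin over sham. In the same order, 4.77%, 0.0% and 0.276% of all genes passed. Between model and sham 2 of the 9 passed without astaxanthin 1 and model 3, against 15.6% of all genes in that fit. Fkbp8, a mitophagy receptor, was at 21869.8, 23935 and 23197 in sham and 15194, 12476 and 17605 in model, without overlap (-0.62 ± 0.18, limma adjusted p = 0.0907). Phb2, an inner-membrane mitophagy receptor, was at 4213, 4320.1 and 3894 in sham and 5926, 6539 and 4852 in model (0.47 ± 0.16, limma adjusted p = 0.124).

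Beyond these members, 20 further well-known HIF targets were tested, and 4 rose and 0 fell in model, against 3.45% and 1.32% of all genes. Their median log2 fold change was 0.68 against 0.02 over all genes. Hmox1, which breaks down heme, went from 239, 287 and 341 normalized reads in sham to 21118, 44416 and 6009 in model, with 2488, 8829 and 5922 in astaxanthin. It rose by 5.96 ± 0.70 on the log2 scale (limma adjusted p = 0.00595) and kept its call in all 9 fits without a library. Lox, which crosslinks collagen, went from 76.3, 82.8 and 37.3 to 761, 3079 and 1353, with 270.1, 539 and 1647 in astaxanthin (4.55 ± 0.73, limma adjusted p = 0.0177, lost without any of the sham libraries). For Hmox1 and Lox the highest library was model 3. Stc2, which encodes the secreted glycoprotein stanniocalcin, went from 123, 159 and 98.3 to 1256, 587 and 471, highest in model 1, with 317, 954 and 945 in astaxanthin (2.49 ± 0.52, limma adjusted p = 0.0365, kept in 2 of 9 fits). The remaining gene, named after its value was seen, was the vasodilator peptide gene Adm (3.57 ± 0.84, limma adjusted p = 0.0493, kept in 1 of 9). Several of these genes, Hmox1 among them, are also raised by signals other than HIF. Without single libraries 1 to 6 of the 20 were called, against 0.407% to 9.12% of all genes in those fits. The count was 1 when sham 1, sham 3 or sham 5 was left out and 2 for model 1, model 3, astaxanthin 2 or astaxanthin 3. Without both astaxanthin 1 and model 3, 6 passed, against 15.6% of all genes.

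With astaxanthin, 0 of these 20 targets passed in limma against model, with a median of -0.43 against -0.01 over all genes. The difference was -1.81 ± 0.70 for Hmox1 (limma adjusted p = 0.548), with overlapping groups. Plod2, a collagen lysyl hydroxylase, was at 547, 793 and 569 in model and 261, 448 and 462 in astaxanthin, lower in every astaxanthin library (-0.73 ± 0.38, limma adjusted p = 0.580). Against sham 0 of 20 passed in limma, with a median of 0.29 against 0.04 over all genes. Of all genes, 0.0% passed in limma against model and 0.276% against sham. DESeq2 called 5 of the 20 targets against sham, where it called 4.64% of the genes it tested. Every astaxanthin library lay above every sham library for Hmox1 (4.14 ± 0.70, limma adjusted p = 0.0684), Stc2 (2.40 ± 0.52, limma adjusted p = 0.137) and Lox (3.31 ± 0.73, limma adjusted p = 0.137). Without single libraries 0 to 2 of the 20 passed against sham, the 2 without astaxanthin 1, against 0.00566% to 0.845% of all genes in those fits. Without both astaxanthin 1 and model 3, 5 passed, against 4.09% of all genes.

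**Figure D5:**
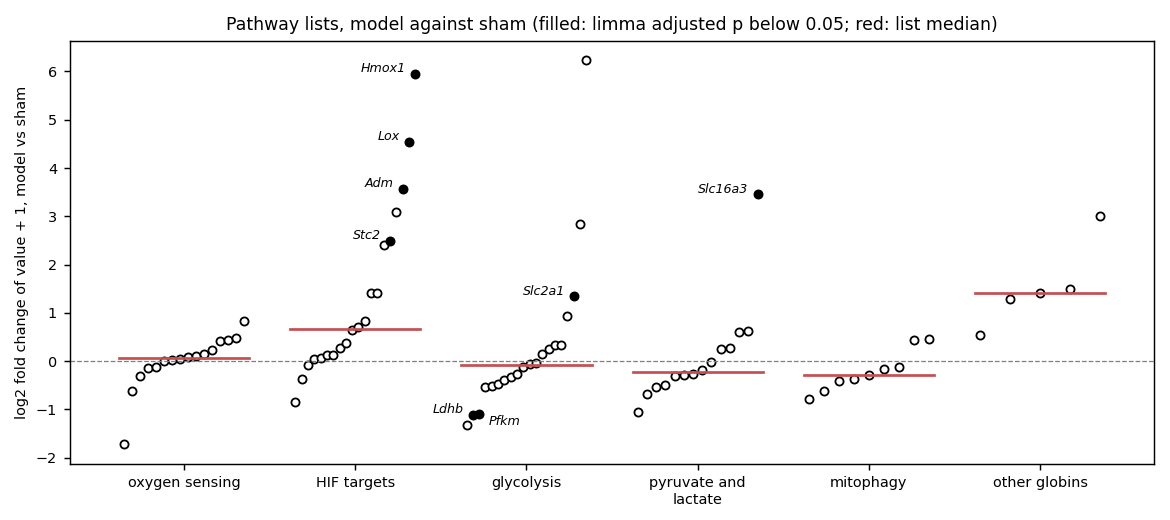
Log2 fold change of model over sham for each gene of the 6 pathway lists (points, 1 column per list), sorted by value, with the list's median as a line. Genes past the threshold are filled and named: 4 HIF targets, Slc2a1, Pfkm and Ldhb in glycolysis and Slc16a3 among pyruvate and lactate genes in model. The open points at the top of the glycolysis column did not pass.

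Ngb (chromosome 6, 106744378 to 106749830) had the largest fall among the members. Its normalized reads were 717, 439 and 911 in sham, 54.9, 108 and 104 in model and 158, 198 and 267 in astaxanthin. Every model library lay below every astaxanthin library, and every astaxanthin library below every sham library. Group means were 689 ± 237, 89.0 ± 29.6 and 208 ± 55.3. The log2 fold change of model over sham was -2.94 ± 0.41 (-3.87 to -2.00, limma adjusted p = 0.0122), and the call was lost without sham 1 (-2.88, limma adjusted p = 0.0724). Astaxanthin differed from model by 1.24 ± 0.41 (0.31 to 2.18, limma adjusted p = 0.548) and from sham by -1.69 ± 0.41 (limma adjusted p = 0.173). DESeq2 called the last of these (adjusted p = 0.00148) and did not call the former (0.114).

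The mean level of the neuronal markers was also lower in the occluded libraries, though not that of every marker. Of the 14, 8 lay below all sham libraries in the model group and 6 in the astaxanthin group, against 16.6% and 11.4% of genes. In both groups 0 lay above all sham libraries, against 19.0% and 13.0% of genes, and the other markers overlapped. The mean log2 level of the 14 pan-neuronal markers, relative to the sham mean, was -0.42, -1.71 and -0.35 in model 1, 3 and 4 and between -0.73 and -0.33 in astaxanthin. Log2 Ngb minus that mean was -5.54, -6.37 and -5.09 in sham, -8.81, -6.55 and -7.97 in model, and -6.98, -6.92 and -6.63 in astaxanthin. Ngb thus stood lower relative to the neuronal markers in every occluded library than in any sham library. In model 3, where those markers were lowest, the gap to the lowest sham library was small. The difference of means was -2.11 ± 0.76 SE for model over sham and -1.18 ± 0.39 for astaxanthin over sham, each with an exact permutation p of 0.1 (0.225 adjusted over 9 comparisons). Between astaxanthin and model it was 0.93 ± 0.67 (exact permutation p = 0.4, 0.45 adjusted). The mean log2 level of 12 hypothalamic neuron markers, relative to the sham mean, ranged from -1.98 to 1.60 within sham, from -2.22 to 0.01 in model and from -2.62 to -0.90 in astaxanthin. Their summed normalized reads went otherwise, at 1012 to 6600 in sham, 9675 to 42559 in model and 1827 to 18774 in astaxanthin. Most of the sum in model came from Trh, named after its value was seen. Trh was at 95.1 to 1740 normalized reads in sham, 9004 to 39935 in model and 1482 to 17499 in astaxanthin. Of the 12, 1 lay above all sham libraries and 2 below in the model group, against 0 and 4 in the astaxanthin group. The shares of all genes above and below were 19.0% and 16.6% in model, and 13.0% and 11.4% in astaxanthin. Oxt and Otp were at 0 in all astaxanthin libraries and in at least 1 library of each other group. The part of the sampled region in the Ngb values was not tested.

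Cygb (chromosome 10, 101877676 to 101887442) fell as well. Its normalized reads were 4333, 4164 and 3897 in sham, 1398, 1950.1 and 1974 in model and 3848, 2204 and 2751 in astaxanthin. No group overlapped another, with model lowest, sham highest and astaxanthin 1 close to sham. Group means were 4131 ± 220, 1774 ± 326 and 2934 ± 837. The log2 fold change of model over sham was -1.24 ± 0.23 (-1.76 to -0.71, limma adjusted p = 0.0259). The call was lost without sham 1, sham 3, sham 5 or model 1, where the limma adjusted p of Cygb lay between 0.0776 and 0.110. Astaxanthin differed from model by 0.71 ± 0.23 (0.18 to 1.23, limma adjusted p = 0.548) and from sham by -0.53 ± 0.23 (limma adjusted p = 0.403). Among cells known for Cygb, the 11 pericyte and fibroblast markers had a mean log2 level relative to the sham mean of -0.46 to 0.32 in sham, 0.38, 2.66 and 0.75 in model 1, 3 and 4, and 0.61, 0.19 and 0.45 in astaxanthin. In model 5 of the 11 lay above all sham libraries, 0 below, and the others overlapped. Of all genes, 19.0% lay above and 16.6% below. The part of cell makeup in the Cygb values was not tested.

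Of 12 further globin genes listed, those of blood and muscle among them, 9 were in the table and 5 were tested. In all comparisons 0 of the 5 passed in limma. The median log2 fold change was 1.41 for model over sham, -0.95 for astaxanthin over model and 0.67 for astaxanthin over sham. In the same order, 4.77%, 0.0% and 0.276% of all genes passed. Hba-a2, an alpha-globin of red cells, was at 7264, 8802 and 14359 in sham, 25367, 101487 and 7953 in model and 14497, 11057 and 11409.8 in astaxanthin. Its highest value was in model 3, where the 6 erythroid markers were also highest (2.47 above the sham mean on the log2 scale). Reads of near-identical alpha-globin copies may be divided between them. Myoglobin (Mb) stayed at or below 112 normalized reads in every library.

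Among all tested genes, the nearest in pattern to Cygb over the 9 libraries was Ldhb. The measure was the mean absolute difference of log2 values after centring each gene on its own mean, and it came to 0.092 for Ldhb, 0.12 for Vwa8 and 0.14 for Qrsl1, against a mean deviation of Cygb itself of 0.50. For Hif1a the nearest were Ptpn2 (0.15), Lyar (0.16) and Lrrfip2 (0.17), against 0.52 for Hif1a itself. Ngb, whose own mean deviation was larger (1.08), had no neighbour as close on this absolute measure. Nearest to it were Vwa5b1 (0.40), Slc6a11 (0.41) and Prtn3 (0.41). Slc6a11, a GABA transporter of astrocytes, was at 6282, 2916 and 8472 normalized reads in sham and 938, 1193 and 1402 in model.

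Compared per kilobase of transcript, the order of the members changed with occlusion. In sham it ran from Ldha (14135 ± 1594 reads per kilobase) through Bnip3 (4861 ± 760), Epas1 (2143 ± 503), Cygb (1930 ± 92.5), Hif1a (1694 ± 76.3), Pdk1 (1068 ± 167), Pfkfb3 (708 ± 28.5), Egln3 (598 ± 16.1) and Ngb (389 ± 136) to Hk2 (101.1 ± 28.1). Epas1 overlapped both Cygb and Hif1a in sham, and the other neighbours in this order did not overlap. In model Hif1a was at 4786 ± 1186 reads per kilobase, within its spread of Bnip3 (3978 ± 1026) and Epas1 (3765 ± 3536). Pfkfb3 (2520 ± 725) then stood above Cygb (839 ± 158), and Hk2 (664 ± 149) stood above Ngb (51.9 ± 16.8). In astaxanthin the mean levels per kilobase were 2749 ± 260 for Hif1a, 1689 ± 958 for Pfkfb3, 1365 ± 381 for Cygb, 436 ± 268 for Hk2 and 117 ± 31.2 for Ngb.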

How the data were processed

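RNA sequencing of 9 rat brain libraries (3 sham, 3 model, 3 astaxanthin) was used. The submitters' processing notes name the build rn7 and the tools STAR, StringTie, FastQC and DESeq2, without versions or settings. The authors deposited gene and transcript signal values, each table already normalized by library, and tests were made only within the gene table. Every value was a whole multiple of its library's smallest positive value (100% within a tolerance of 0.01), so reads were recovered by division. Because the values were normalized, limma 3.58.1 (R 4.3.3), and not the count test planned for raw counts, was fitted to log2(value + 1) of the 9 libraries with group as the only term and trend and robust moderation. Genes at 0.5 or more in at least 3 libraries were tested, and p-values were Benjamini-Hochberg adjusted over all 17770. Fold changes are differences on that log2 scale, which understates those of low genes. DESeq2 1.42.0 and edgeR 4.0.16 on recovered reads were alternatives, as were other pseudocounts, filters, scalings and left-out libraries. Within-library differences had two-sided exact permutation tests. The fit was tested on simulated data. Intervals and the floor of 3 reads cover, respectively, the spread between libraries and counting error. The members and gene lists were chosen with earlier results of these data known, and 1 HIF target is not reported here and was taken out of its list. Named were all members, Ldhb, up to 3 genes of each list with the smallest p per comparison, the 3 genes nearest in pattern to Hif1a, Ngb and Cygb, and marker lists by their range; any other gene is said to be chosen after its value was seen.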

Additional observations from a re-analysis of the deposited data

How the results depend on the processing

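Of 210 values of the 10 members under alternative settings per comparison, 187 kept their direction and side of the threshold for model over sham, 195 for astaxanthin over model and 195 for astaxanthin over sham. The members called in model against sham numbered 4, with 0 to 5 without single libraries and 6 without astaxanthin 1 and model 3 together. In the same fits 4.77%, 0.407% to 9.12% and 15.6% of all genes were called. With the replicate number as a block 0 members were called. In that fit sham 5, model 4 and astaxanthin 2 each had a number of their own and did not inform the group differences. Few calls could therefore be made with the block, and its results say little. The values showed no sign of pairing by the labels' numbers, which so few libraries cannot settle. Correlations of deviations from the group means lay between -0.12 and 0.07 for same-numbered libraries and between -0.17 and 0.16 for others. In astaxanthin against model DESeq2 called 1 member, against 1.28% of the genes it tested. Without any single library 0 members were called, against 0.0% to 0.017% of all genes. In astaxanthin against sham DESeq2 called 3 members, fits without 1 library 0 to 2, and the fit without astaxanthin 1 and model 3 called 3. The shares of all genes in those fits were 4.64%, 0.00566% to 0.845% and 4.09%. Over all genes, 848 were called in model against sham, against 2939 by DESeq2, 521 without trend and robust moderation, 0 with the block, 72 to 1608 without single libraries, and 2710 without astaxanthin 1 and model 3. In astaxanthin against model 0 were called, against 204 by DESeq2, 8 without moderation and 0 to 3 without single libraries. In astaxanthin against sham 49 were called, against 75 and 19 with pseudocounts of 0.1 and 5, 773 by DESeq2, 0 by edgeR, 4 from the compared groups alone, 0 with the block, 1 to 149 without single libraries, and 713 without astaxanthin 1 and model 3. All member values lay far above the floor of 3 reads.

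Directions reversed for members that did not pass the test, and the cause was not tested. In model over sham Epas1 turned to -0.34 without model 3, with or without astaxanthin 1. In astaxanthin over model Epas1 turned to 0.24 without model 3 and to 0.35 without it and astaxanthin 1, and Egln3 to 0.02 without astaxanthin 1 and to 0.24 without both. Pdk1 there turned to 0.0068 by DESeq2 and 0.017 by edgeR. Leaving out model 4 gave Pdk1 0.15, leaving out astaxanthin 1 gave 0.19, leaving out astaxanthin 3 gave 0.011, and leaving out both astaxanthin 1 and model 3 gave 0.11. Bnip3 turned to 0.062 with the block. It was 0.18 when model 4 was left out, 0.0047 for astaxanthin 1 and 0.051 for astaxanthin 3. In astaxanthin over sham Epas1 turned to 0.093 with the block, 0.14 without sham 5 and 0.010 without astaxanthin 1, with or without model 3. Ldha turned to -0.18 with the block, -0.14 without astaxanthin 2 and -0.067 without astaxanthin 3. The within-library difference of Hif1a and Epas1 between astaxanthin and model turned to 0.17 without model 1. The far ends of the ranges over fits without 1 library were 0.79 for Epas1 in model over sham. In astaxanthin over model they were -0.89 for Epas1, -0.58 for Egln3, -0.29 for Pdk1 and -0.19 for Bnip3. In astaxanthin over sham they were -0.28 for Epas1 and 0.69 for Ldha. The lowest value of Hif1a minus Epas1 in astaxanthin over model, -1.15, came without astaxanthin 1 and model 3.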
